A study of Mus musculus with 8 samples.

Results

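The miR-106b-25 and miR-106a-363 clusters are the paralogs of miR-17-92, and 8 of their mature miRNAs were followed here in murine hepatocytes and in the extracellular vesicles (EVs) that these cells release. The 8 were taken by name from the 1978 mouse miRNAs of the table of counts: mmu-miR-106b-5p, mmu-miR-106b-3p, mmu-miR-93-5p and mmu-miR-25-3p from the first cluster, and mmu-miR-106a-5p, mmu-miR-18b-5p, mmu-miR-20b-5p and mmu-miR-363-3p from the second (the prefix mmu, for mouse, is left out below). The libraries were made from the small RNA of 3A, a non-tumorigenic mouse hepatocyte line, and of EVs recovered by ultracentrifugation of medium that the cells had conditioned for 72 h with EV-depleted serum. All cells had received a retroviral vector and were selected with puromycin. The vector encoded either a scrambled shRNA (shCTR) or one directed at PCBP2 (shPCBP2), a poly(C)-binding RNA-binding protein that the study examined for a role in keeping miRNAs in the cell. Both shRNAs were measured in both compartments, which gave 4 conditions of 2 biological replicates. With so few libraries the smallest two-sided p of an exact permutation test is 0.333, and the p-values across miRNAs were therefore taken from a fitted model.

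Clustered miRNAs are cut from a shared primary transcript, and each hairpin can give a mature miRNA from its 5′ arm (5p) and its 3′ arm (3p), of which the cell usually keeps mainly the guide. A miRNA recognises its target mRNAs chiefly through the seed, bases 2 to 8 from the 5′ end, so miRNAs with the same seed are counted as a family. The miR-17 family and its paralogs are known for favouring proliferation and survival by repressing regulators such as Cdkn1a (p21) and Bcl2l11 (Bim). miR-106b-25 lies within Mcm7, a gene of the replicative helicase, and is widely expressed in dividing cells, whereas miR-106a-363 is on the X chromosome and is usually expressed at a low level in differentiated tissue.

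The mature sequences are given because miR-25-3p and miR-93-5p, the abundant members that came apart most between cells and EVs, have different seeds. The low-count members miR-106a-5p and miR-20b-5p share a seed but had log2 EV/cell ratios of -8.17 and -1.77 in shCTR (standard errors 1.25 and 1.82). A further reason is that members of the second cluster, other than miR-363-3p, are told from abundant miRNAs of miR-17-92 by few bases. The sequences come from RefSeq (GRCm38.p6), where all 8 members were found, and the capitals mark the seed. The first 3 hairpins lie on the minus strand at chr5:138165321-138165818, a span of 498 bases within introns of Mcm7, where Mir25 and Mir93 are also covered by an exon of a retained-intron transcript. The second cluster lies on the minus strand at chrX:52741693-52742567, a span of 875 bases with 6 hairpins. In the annotation Mir106a overlaps an exon of the non-coding gene Kis2, and the other hairpins of this cluster overlap no gene on the same strand.
miR-106b-5p: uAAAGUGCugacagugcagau
miR-93-5p: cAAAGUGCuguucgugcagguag
miR-106a-5p: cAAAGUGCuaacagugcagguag
miR-20b-5p: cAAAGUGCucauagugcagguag
miR-17-5p (miR-17-92): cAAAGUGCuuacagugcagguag
miR-20a-5p (miR-17-92): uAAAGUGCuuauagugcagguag
miR-18b-5p: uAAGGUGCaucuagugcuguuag
miR-25-3p: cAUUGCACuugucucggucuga
miR-363-3p: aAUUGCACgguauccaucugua
miR-92a-3p (miR-17-92): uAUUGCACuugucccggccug
miR-106b-3p: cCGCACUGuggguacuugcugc

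miR-106b-5p, miR-93-5p, miR-106a-5p and miR-20b-5p carry the seed AAAGUGC, and miR-25-3p and miR-363-3p carry AUUGCAC. miR-18b-5p has the seed AAGGUGC and miR-106b-3p, the passenger arm of its hairpin, has CGCACUG. Counted from 1 at the 5′ end and with the base of the member first, miR-106a-5p differs from miR-17-5p only by A10U, and miR-20b-5p from miR-20a-5p by C1U and C10U. The counts of such close copies are uncertain, since the aligner could assign a misread base to the other copy. In each of the 8 libraries, miR-199a-3p, which comes from a pair of hairpins, had about 2 times the count of the identical miR-199b-3p (1.999 to 2.04), so that reads of one sequence were divided among hairpins.

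The libraries held 26391248 to 38166798 counted reads. Mouse miRNAs made up 33.1 to 42.6% of the reads in cells and 1.62 to 2.42% in EVs, and the spike-in cel-miR-39, added to each sample, made up the rest. Levels are therefore given as reads per 1000000 spike-in reads, and a count of 0 allows up to 3 reads, or 0.0799 to 0.191 per 1000000 spike-in reads depending on the library. The reads were not collapsed by molecular identifiers, so floors and intervals of counts cover counting error only. The list of hepatocyte markers (miR-122-5p, miR-192-5p and miR-194-5p) was read in cells with all 3 members, at a summed level of 13024 to 20407, and in EVs at 184 to 293, with miR-192-5p at 0 in EV shPCBP2. The defining miR-122-5p had 356 to 485 counts in cells and 795 to 2327 in EVs. In EVs, 3 of 3 erythroid markers were read at a summed level of 1009 to 1275, against 3.85 to 10.8 in cells, where miR-451a and miR-144-3p were at 0. All 4 leukocyte markers were read in EVs at 234 to 422, against 0.786 to 5.05 in cells with both miR-142a arms at 0. The muscle list (miR-1a-3p, miR-133a-3p and miR-206-3p) went the other way, at 696 to 1112 in cells and 3.46 to 5.85 in EVs, with miR-133a-3p at 0 in EVs. The endothelial list (both miR-126a arms) was at 110 to 170 in cells and 101 to 187 in EVs. The origin of these reads, and any part of other sources in the EV levels of the 8 miRNAs, was not tested.

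In cells, the miR-106b-25 cluster was abundant and the miR-106a-363 cluster was low, with miR-18b-5p and miR-363-3p at or near the limit of detection. Together the 8 miRNAs took 3.83 to 4.55% of the mouse miRNA reads in cells and 2.86 to 3.41% in EVs. The 4 members on the X chromosome had 151 to 475 reads per cell library and 3 to 43 per EV library.

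miR-93-5p, the guide of its hairpin and a member of the miR-17 seed family, was the most abundant of the 8 in every cell library. Its level was 20860.2 and 22616 per 1000000 spike-in reads in cell shCTR and 13333 and 18151 in cell shPCBP2. In EVs it was 329.6 and 324.9 in shCTR and 202.7 and 216.6 in shPCBP2. All EV libraries lay far below all cell libraries, and within each compartment both shPCBP2 libraries lay below both shCTR libraries. Of the 180 miRNAs tested below, 120 (66.7%) had this order of the shRNA conditions in cells and 76 (42.2%) in EVs.

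miR-25-3p, from the hairpin downstream of Mir93 and with the seed of miR-92a-3p, had a level of 5155 and 5629.5 in cell shCTR and 3106 and 4266 in cell shPCBP2. In EVs it was 263.2 and 279.7 in shCTR and 216.4 and 238.8 in shPCBP2. It was about 4 times less abundant than miR-93-5p in cells, whereas in EVs it lay below miR-93-5p in both shCTR libraries and above it in both shPCBP2 libraries.

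miR-106b-5p, which shares its seed with miR-93-5p, had a level of 4522 and 5331 in cell shCTR and 3186 and 4630.05 in cell shPCBP2. In EVs it was 145.1 and 119.5 in shCTR and 47.7 and 102.6 in shPCBP2. Replicate 1 of EV shPCBP2 was the lowest EV library, with 47.7 against 102.6 in replicate 2.

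**Figure D1:**
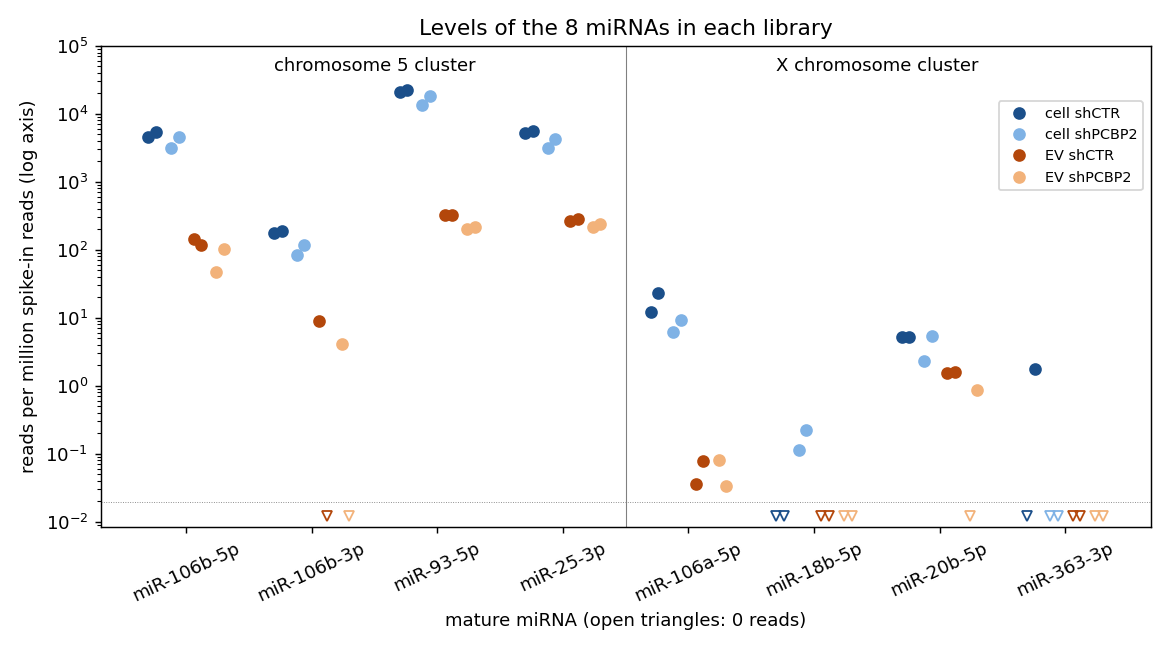
Level of the 8 miRNAs in each of the 8 libraries, in reads per 1000000 spike-in reads on a log axis, coloured by condition, with open triangles for libraries without reads. The circles of miR-106b-5p, miR-93-5p and miR-25-3p in EVs lie far below those in cells, and the members on the X chromosome stay at or under 23.1 per 1000000 spike-in reads.

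The EV/cell ratio of the level relative to the spike-in was then tested with a quasi-likelihood model in edgeR over the 180 miRNAs read in 2 or more of the cell libraries and 2 or more of the EV libraries. This filter kept 6 of the 8 members, all 4 of the first cluster and miR-106a-5p and miR-20b-5p of the second. In shCTR, 4 of these 6 had a lower level in EVs at an adjusted p under 0.05, while 107 of all 180 miRNAs (59.4%) were lower and 12 were higher. In shPCBP2 the same 4 were lower, against 108 of 180 (60%). The median log2 ratio of the 6 was -5.28 in shCTR and -5.65 in shPCBP2, and that of all tested miRNAs was -4.93 and -4.90.

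miR-93-5p in shCTR was 66.4-fold lower in EVs than in cells, a log2 ratio of -6.05 with a standard error of 0.22 (adjusted p = 4.49e-06, edgeR quasi-likelihood test, Benjamini-Hochberg). miR-106b-5p had a ratio of -5.22 (standard error 0.46, adjusted p = 7.95e-05 in the same edgeR test). miR-25-3p had the least negative ratio of the abundant members, -4.31 (standard error 0.22, adjusted p = 8.08e-06 in the same edgeR test), a 19.9-fold lower level. In shPCBP2 the ratios were -6.23 for miR-93-5p, -5.70 for miR-106b-5p and -4.02 for miR-25-3p, with standard errors of 0.22, 0.47 and 0.22. Fewer EVs, less miRNA per EV and a different amount of sample per amount of spike-in cannot be told apart in such a level. The amounts of cells and of medium per amount of spike-in are not given. Among the 180 tested miRNAs, ordered from the highest ratio in shCTR, miR-25-3p was number 73, miR-106b-5p number 105 and miR-93-5p number 138.

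The direction of these ratios depended on the scaling, because the median of all tested miRNAs moved from -4.93 with the spike-in to -0.17, -0.15 and 0.06 in shCTR when the libraries were scaled by TMM, by the median of ratios or by the total mouse miRNA count. miR-93-5p stayed lower in EVs under each of these scalings, at -1.28, -1.27 and -1.06, whereas miR-25-3p was higher, at 0.46, 0.48 and 0.69, of which the middle value did not pass the test (adjusted p = 0.0360, 0.0621 and 0.00419, edgeR quasi-likelihood test, Benjamini-Hochberg). miR-106b-5p was at -0.45, -0.45 and -0.23 and did not pass the test under any of these. Stated as shares of the mouse miRNA reads, miR-93-5p took 2.56 to 3.04% in cells and 1.23 to 1.53% in EVs, and miR-25-3p took 0.602 to 0.757% in cells and 1.06 to 1.44% in EVs. For both, cell and EV libraries did not overlap, and the order was opposite. Calls in either direction were common with the total mouse count in the same edgeR test. Of 180 miRNAs, 43 were higher in EVs and 32 lower in shCTR, and 54 and 35 in shPCBP2. The share of all tested miRNAs without overlap was not counted.

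**Figure D2:**
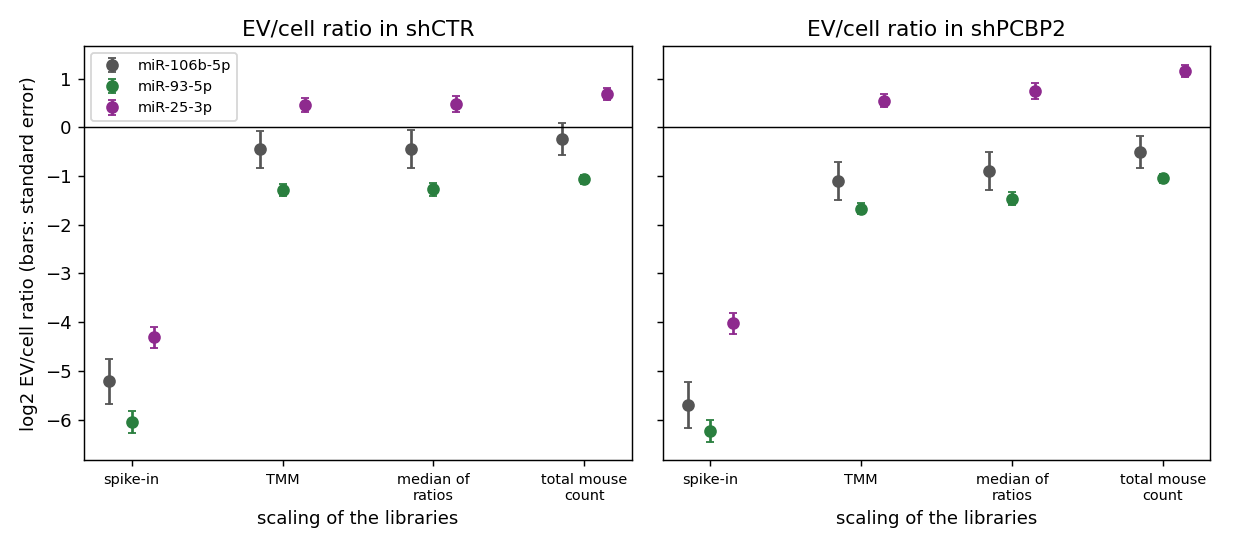
Fitted log2 EV/cell ratio, with its standard error, of the abundant members in shCTR and in shPCBP2 under the 4 scalings of the libraries. miR-25-3p lies above 0 and miR-93-5p below 0 with every scaling other than the spike-in, with which both lie below 0, and miR-25-3p lies above miR-93-5p throughout.

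A ratio between miRNAs of the same library needs no scaling, and the abundant members of miR-106b-25, cut from one transcript, could be compared in this way. miR-25-3p had 0.247 and 0.249 counts per count of miR-93-5p in cell shCTR, and 0.233 and 0.235 in cell shPCBP2. In EVs it had 0.798 and 0.861 in shCTR and 1.07 and 1.10 in shPCBP2. Over the 4 EV and the 4 cell libraries, the log2 ratio was higher in EVs by 1.98, a 3.94-fold difference (mean -0.08 ± 0.23 in EVs and -2.05 ± 0.05 in cells, SD, n = 4, exact two-sided permutation test p = 0.0286, adjusted over 3 pairs 0.0429). This p is the smallest that 4 libraries against 4 can give, and the EV and cell values did not overlap. In this test and those of the other pairs, each set of 4 pooled shCTR and shPCBP2 libraries. The permutation did not keep the shRNA conditions apart, and each SD includes the difference between them. Among the 180 tested ratios in shCTR, miR-25-3p and miR-93-5p were numbers 73 and 138. How often other pairs of miRNAs differ this much was not tested.

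Against miR-106b-5p, miR-25-3p had 0.921 to 1.14 counts per count in cells and 1.81 to 4.54 in EVs. The log2 ratio was higher in EVs by 1.34, or 2.54-fold (1.37 ± 0.57 in EVs and 0.03 ± 0.13 in cells, SD, n = 4, exact two-sided permutation test p = 0.0286, adjusted over 3 pairs 0.0429). The highest value, 4.54, was that of EV shPCBP2 replicate 1, in which miR-106b-5p was low. In the shCTR libraries alone the difference was 0.91 and in the shPCBP2 libraries alone 1.78, against 1.74 and 2.21 for miR-25-3p over miR-93-5p. The ratio of miR-93-5p to miR-106b-5p, which share a seed, was 3.92 to 4.61 in cells and 2.11 to 4.25 in EVs. Its log2 difference of -0.63 did not pass the test (exact two-sided permutation test p = 0.114, adjusted over 3 pairs 0.114), and the EV and cell values overlapped.

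**Figure D3:**
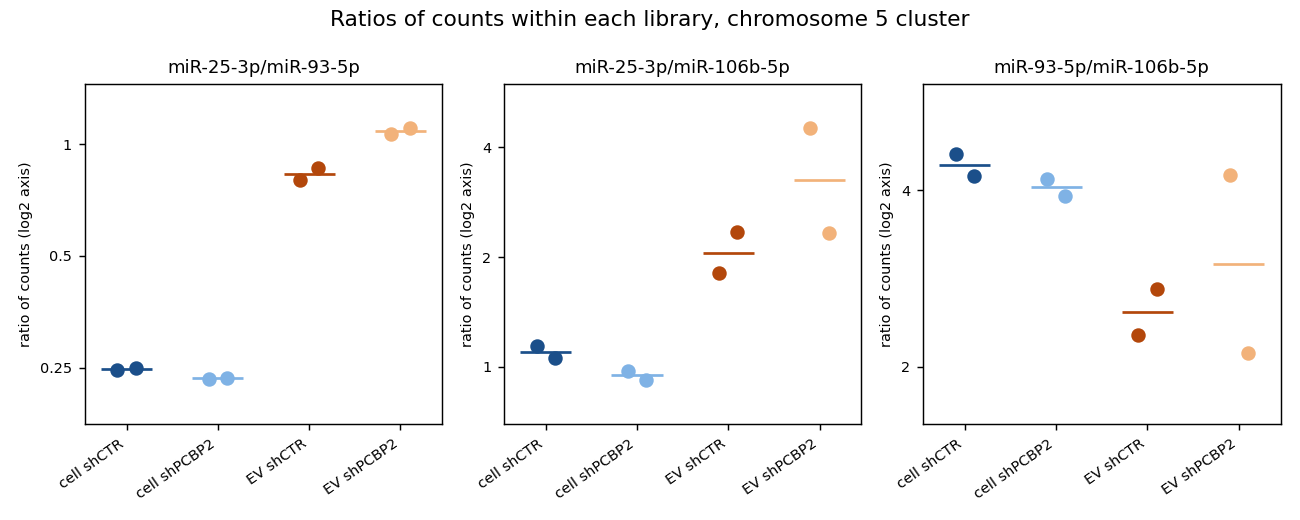
Ratio of the counts of miR-25-3p to miR-93-5p, of miR-25-3p to miR-106b-5p and of miR-93-5p to miR-106b-5p within each library, on log2 axes, with the geometric mean of the 2 replicates of each condition as a line. Both ratios that hold miR-25-3p lie higher in all 4 EV libraries than in all 4 cell libraries, whereas the ratio of miR-93-5p to miR-106b-5p overlaps.

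The paralogs in miR-17-92 were compared as the related list. Of its 12 mature miRNAs 5 were tested, all 5 lower in EVs in both shRNA conditions in the same edgeR test, with a median log2 ratio of -5.05 in shCTR and -5.11 in shPCBP2. In this list, the tested miRNAs with the seed of miR-93-5p were close to the median of all tested miRNAs or below it. The ratio in shCTR was -5.05 (standard error 0.24) for miR-17-5p and -5.53 (standard error 0.30) for miR-20a-5p. miR-92a-3p, which shares the seed AUUGCAC with miR-25-3p and differs from it at 3 of 21 bases, had a ratio of -2.82 (standard error 0.38). It is encoded both by Mir92-1 of miR-17-92 on chromosome 14 and by Mir92-2 of the cluster on the X chromosome, whose reads cannot be told apart. As a share of the mouse reads, miR-92a-3p took 0.100 to 0.135% in cells and 0.576 to 0.807% in EVs. In both shRNA conditions, the ratios of miR-25-3p and miR-92a-3p lay above those of all tested members of the seed AAAGUGC other than miR-20b-5p, whose error was wide. miR-92b-3p, the remaining tested miRNA with the seed AUUGCAC, had -0.31 with a standard error of 2.03.

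**Figure D4:**
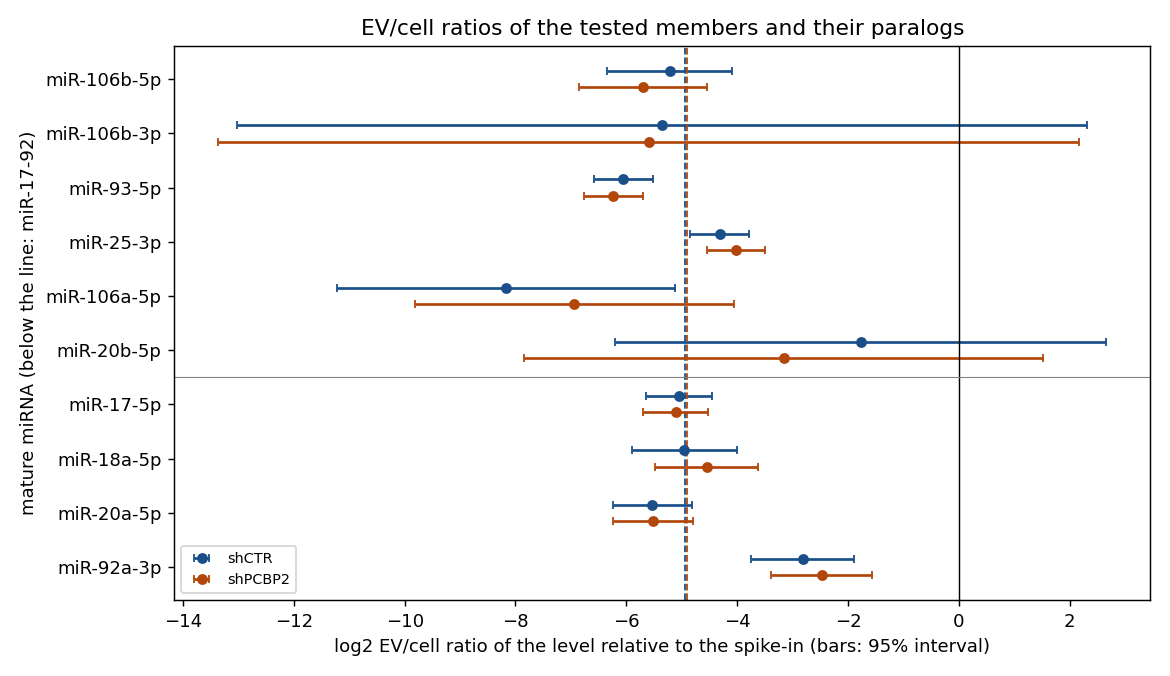
Fitted log2 EV/cell ratio relative to the spike-in, with 95% intervals, of the 6 tested members and of their closest paralogs in miR-17-92, in shCTR and shPCBP2, with the median of all 180 tested miRNAs as a dashed line. miR-93-5p lies left of the median, miR-25-3p and miR-92a-3p right of it, and the intervals of miR-106b-3p and miR-20b-5p cross 0.

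The members on the X chromosome were far below their paralogs on chromosome 14. The cell counts of miR-106a-5p were 219 and 364 with shCTR and 108 and 163 with shPCBP2, where miR-17-5p had 138012 to 241756. Its EV counts were 1 and 2 with shCTR and 3 and 1 with shPCBP2. All EV libraries lay at or under the limit that a count of 0 allows. Relative to the spike-in, its summed cell count was 312-fold higher than its EV count in shCTR (95% counting interval 106.1 to 1515) and 130-fold higher in shPCBP2 (50.1 to 480). miR-17-5p was 32.8-fold higher in shCTR (32.4 to 33.3). The fitted log2 ratio of miR-106a-5p was -8.17 in shCTR (standard error 1.25, adjusted p = 0.00122, edgeR quasi-likelihood test, Benjamini-Hochberg) and -6.94 in shPCBP2 (adjusted p = 0.00202). These calls were lost with other scalings, with the median of ratios and the total mouse count in shCTR (adjusted p = 0.0551 and 0.0795, edgeR) and with all 3 in shPCBP2 (0.107 to 0.249). Counts this low were rare in EVs, where 28 of 761 counts above 0 (3.68%) lay between 1 and 40, against 921 of 2179 (42.3%) in cells, and the 8 miRNAs held 5 of these 28.

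miR-20b-5p was also counted less in EVs than in cells relative to the spike-in, by a smaller factor than its paralog miR-20a-5p, where miR-106a-5p had a larger factor than miR-17-5p. Its cell counts were 94 and 83 with shCTR, and 41 and 95 with shPCBP2. Its EV counts were 42 and 41 with shCTR, and 0 and 26 with shPCBP2. Its summed cell count relative to the spike-in was 3.42-fold higher than the EV count in shCTR (95% counting interval 2.62 to 4.49) and 10.0-fold higher in shPCBP2 (6.55 to 15.9), against 45.6-fold for miR-20a-5p in shCTR. The fitted log2 ratio of -1.77 in shCTR had a standard error of 1.82 and did not pass the test (adjusted p = 0.397, edgeR quasi-likelihood test, Benjamini-Hochberg), and its sign was positive with each scaling other than the spike-in. In shPCBP2 the ratio was -3.15 (standard error 1.92, adjusted p = 0.183, edgeR). Without EV shPCBP2 replicate 2, which leaves a single EV shPCBP2 library with no reads, the ratio in shPCBP2 was -9.46 and passed the test (adjusted p = 0.00389, edgeR).

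miR-18b-5p had 2 and 4 counts in the cell shPCBP2 libraries and none elsewhere. miR-363-3p, from the last hairpin of the cluster, had 28 counts in cell shCTR replicate 2 and none in the other 7 libraries. Neither miRNA was tested, and a difference between conditions was not detectable at this depth. No read was counted on the opposite arms miR-106a-3p, miR-18b-3p, miR-20b-3p, miR-363-5p, miR-19b-2-5p and miR-92a-2-5p.

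The passenger arms of the first cluster were read in cells and irregularly in EVs. The cell counts of miR-106b-3p were 3169 and 3002 with shCTR and 1475 and 2083 with shPCBP2, which is 2.46 to 3.78% of the reads of its hairpin. In EVs, replicate 1 had 251 counts in shCTR and 155 in shPCBP2, while replicate 2 had 0 in both. These are 5.86% (exact 95% binomial interval 5.18 to 6.61) and 7.97% (6.80 to 9.26) of the hairpin in replicate 1. In replicate 2, the 0 of 3110 and 0 of 3121 reads allow up to 0.0965% and 0.0961%. Replicates of the same condition thus differed by far more than counting error, and the fitted EV/cell ratios of -5.35 and -5.60 did not pass the test (standard errors 3.15 and 3.19, adjusted p = 0.167 and 0.162, edgeR quasi-likelihood test, Benjamini-Hochberg). Leaving out EV shCTR replicate 1 gave -15.1 in shCTR (adjusted p = 0.0383, edgeR), and leaving out EV shPCBP2 replicate 1 gave -14.1 in shPCBP2 (adjusted p = 0.0492, edgeR), in each case against a single EV library with no reads. miR-93-3p was read in 1 of the 4 EV libraries, with 75 counts, and miR-25-5p in 2, with 131 and 49. In cells, these arms had 332 to 745 and 460 to 1097 counts.

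The shPCBP2 and shCTR conditions were first compared in cells. None of the 180 tested miRNAs, and so 0 of the 6 members (background 0%), differed at an adjusted p under 0.05 in edgeR's quasi-likelihood test. At an unadjusted p under 0.05, 25 of 180 miRNAs (13.9%) were lower in shPCBP2, and among the 6 members 2 were. These were miR-25-3p, with a log2 change of -0.55 (standard error 0.19, 95% interval -1.02 to -0.08), and miR-93-5p, with -0.47 (standard error 0.18, 95% interval -0.90 to -0.03), with adjusted p of 0.315 and 0.342 in edgeR. miR-106b-5p changed by -0.33 (standard error 0.39). Both shPCBP2 libraries lay below both shCTR libraries for 4 of the 6 members, against 120 of 180 (66.7%). The median change was -0.51 for the members and -0.49 for all tested miRNAs relative to the spike-in. With TMM factors the latter was -0.02, and miR-93-5p and miR-106b-5p then had changes of 0.021 and 0.14. When only the 4 cell libraries were fitted, 2 members were called, miR-106b-3p at -0.88 (adjusted p = 0.00748) and miR-106a-5p at -1.21 (adjusted p = 0.0487, edgeR quasi-likelihood test, Benjamini-Hochberg), and 39 miRNAs in all. With DESeq2 in place of edgeR, 18 miRNAs passed and none of the members did.

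In EVs, all 6 tested members stayed short of the threshold between shPCBP2 and shCTR, while 13 of 180 miRNAs (7.22%) passed it. miR-93-5p was the member nearest to the threshold, with a log2 change of -0.64 (standard error 0.18, 95% interval -1.08 to -0.21, adjusted p = 0.115, edgeR quasi-likelihood test, Benjamini-Hochberg). It passed with DESeq2 (adjusted p = 0.00324) and when cell shPCBP2 replicate 1 or replicate 2 was left out of the edgeR fit (adjusted p = 0.0302 and 0.0284), and its adjusted p over all alternatives ranged up to 0.539. It was the only member with an unadjusted p under 0.05 and a lower level, where 28 of 180 miRNAs (15.6%) had both. miR-106b-5p changed by -0.82 (standard error 0.39, adjusted p = 0.369, edgeR), a value that rested on replicate 1 of EV shPCBP2, since it was -0.37 without that library and -1.47 without replicate 2. miR-25-3p changed by -0.25 (standard error 0.19, adjusted p = 0.593, edgeR), and its sign was positive with each scaling other than the spike-in. miR-20b-5p changed by -1.85 (standard error 1.83), and by -8.15 without EV shPCBP2 replicate 2 (adjusted p = 0.0426, edgeR), where a single library with no reads remained. Both shPCBP2 libraries lay below both shCTR libraries for 4 of the 6 members, against 76 of 180 (42.2%), and the median change was -0.73 for the members and -0.54 for all tested miRNAs.

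**Figure D5:**
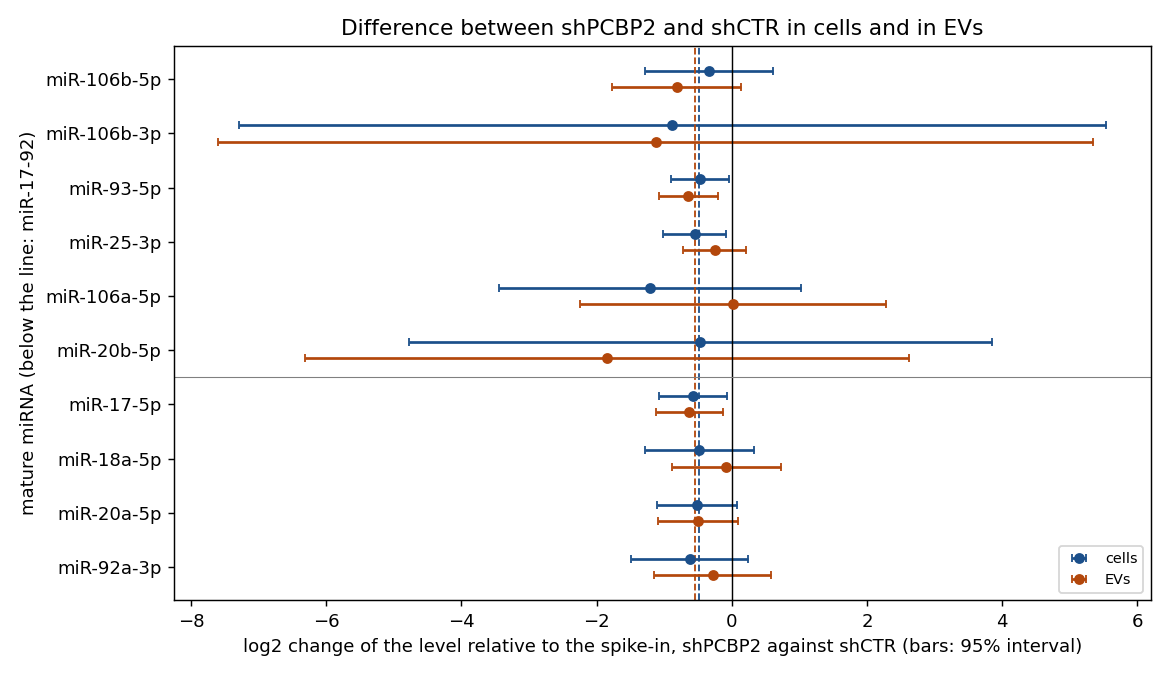
Fitted log2 change of the level relative to the spike-in between shPCBP2 and shCTR, with 95% intervals, in cells and in EVs, for the 6 tested members and their closest paralogs, with the median of all 180 tested miRNAs as a dashed line. The intervals of miR-93-5p and of its paralog miR-17-5p in both compartments, and of miR-25-3p in cells, lie below 0 before adjustment. The changes of the abundant members lie within 0.3 of the medians.

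Whether the partition between EVs and cells differed between the shRNA conditions, the comparison by which the study selected miRNAs, was tested as the interaction of the same model. Of all 180 miRNAs 4 differed (2.22%), and 0 of the 6 members did, with an adjusted p of 0.992 for each (edgeR quasi-likelihood test, Benjamini-Hochberg). At an unadjusted p under 0.05 there was no member either, and DESeq2 called 0 of 6. The log2 change was -0.18 for miR-93-5p (95% interval -0.79 to 0.43), 0.29 for miR-25-3p (-0.36 to 0.95) and -0.48 for miR-106b-5p (-1.81 to 0.85). A change of the ratio of miR-93-5p beyond 0.79 in either direction thus lay outside its interval, while for miR-106b-3p and miR-20b-5p the intervals spanned more than 12 log2 units. The members had a median change of -0.21 and all tested miRNAs one of -0.08. Without EV shPCBP2 replicate 1 the change of miR-106b-5p was -0.032, and without replicate 2 it was -1.14.

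AUUA and AUUG, which the study names as the core of the CELL motif of retained miRNAs, were searched in the mature sequences on the RNA strand. miR-25-3p and miR-363-3p hold AUUG from base 2, within the seed, and the other 6 members hold neither. Of the 180 tested miRNAs, 156 had a mature sequence in RefSeq, and 25 of these (16.0%) held a motif. In shCTR their median log2 EV/cell ratio was -5.19, against -5.05 for the 131 without, and the change of the ratio with shPCBP2 had a median of -0.01 and -0.15. miR-25-3p, with a ratio of -4.31 in shCTR, was thus above the median of either set. The study ties PCBP2 binding to the CELL motif together with the hEXO motif, the site of another RNA-binding protein, SYNCRIP. The hEXO motif was not searched here, so these medians do not test that rule. These are descriptions of letters in a sequence, and binding was not measured by these libraries.

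The profile of each abundant member over the 8 libraries was finally compared with those of 110 other miRNAs that had at least 10 counts in every library, by the root mean square distance of the centred log2 levels. miR-93-5p was nearest to let-7i-5p (0.160), let-7e-5p (0.167) and let-7b-5p (0.210), and miR-25-3p to miR-26a-5p (0.141), miR-26b-5p (0.174) and miR-125b-5p (0.259). miR-106b-5p was nearest to miR-574-5p (0.219), let-7d-5p (0.231) and its seed relative miR-20a-5p (0.268). The distance between miR-93-5p and miR-25-3p, neighbours in the cluster, was 0.999, which is above the median distance of miR-93-5p from all compared miRNAs (0.792). This distance rests on the same counts as their ratio within libraries and is not a separate observation. The other pairs of the cluster lay below the medians of their members, with 0.425 between miR-106b-5p and miR-93-5p and 0.761 between miR-106b-5p and miR-25-3p (medians 0.865 for miR-106b-5p and 0.907 for miR-25-3p). The profiles share libraries and depth, and the mean level of each miRNA was removed. These distances therefore describe likeness of the pattern over the libraries and carry no test.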

How the data were processed

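The authors trimmed the small RNA reads and mapped the forward reads by mirPRo, which calls NovoAlign, on miRBase hairpins plus the spike-in. The deposited values are raw counts per mature miRNA in 8 libraries, the largest rounded. The members and lists were chosen with earlier results of these data known. Samples were grouped and numbered by the sample titles, whose numbering of shPCBP2 replicates differs from that of the descriptions.

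Library sizes in edgeR 4.0.16 (R 4.3.3) were set proportional to the cel-miR-39-3p count. The quasi-likelihood test used terms for compartment, shRNA and their interaction, miRNAs read in 2 or more cell libraries and 2 or more EV libraries, and Benjamini-Hochberg adjustment over all 180. The common dispersion was 0.693. Standard errors were derived from the F statistic. Within-library ratios were log2 ratios of counts plus 0.5. The alternatives were other scalings (TMM, median of ratios, total mouse count), filters, DESeq2 1.42.0, a replicate block, subsets of libraries, and other pseudocounts. The fit was checked on simulated counts, where it recovered most changes at a dispersion well below the fitted one and few at the fitted one. Named miRNAs were the members, the other arms of their hairpins, miR-17-92 and the 3 nearest profiles, and miR-92b-3p, miR-199a-3p and miR-199b-3p were added after their values were seen. PCBP2 itself is not measured by these libraries. Permutation tests were run with scipy 1.17.1.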

Additional observations from a re-analysis of the deposited data

Results flagged for a closer look

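The count ratio of miR-25-3p to miR-93-5p was higher in both EV shPCBP2 libraries than in both EV shCTR libraries, and lower in both cell shPCBP2 libraries than in both cell shCTR libraries, so that the shRNA conditions differed in opposite directions between the compartments. The log2 change with shPCBP2 was 0.39 in EVs and -0.08 in cells, and the difference between these changes was 0.47, or 1.39-fold. The ratio was flagged because the shRNA conditions separated fully and in opposite directions. That separation alone gives an exact two-sided permutation test over 36 orders of the labels its smallest p, 0.0556. The test therefore cannot decide whether the difference is real, and no conclusion is drawn from it. A Benjamini-Hochberg adjustment was not applied to it. The same difference was 0.87 for miR-25-3p over miR-106b-5p (exact permutation p = 0.111) and 0.40 for miR-93-5p over miR-106b-5p (exact permutation p = 0.50).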

How the results depend on the processing

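The number of members called in the EV/cell comparison of shCTR was 4, all lower, where 119 of 180 miRNAs were called. It was 1 (miR-93-5p, lower) with the median of ratios, where 76 miRNAs were called. With the total mouse count it was 2, miR-93-5p lower and miR-25-3p higher, where 75 were called. In shPCBP2 it was 4, all lower, where 122 were called. Each of the 3 scalings other than the spike-in called 2 there, miR-93-5p lower and miR-25-3p higher, of 86 to 89 miRNAs called. Between shPCBP2 and shCTR, DESeq2 called 1 member in EVs, of 27 miRNAs called. A fit of only the 4 cell libraries called 2 in cells, of 39 miRNAs called, where the main count was 0. Leaving out each library in turn gave 4 to 5, 4 to 5, 0 to 1 (EVs) and 0 (cells and the change of the ratio).

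The EV/cell ratio changed sign under the scalings by TMM, by the median of ratios and by the total mouse count, in this order, for miR-25-3p (0.46, 0.48 and 0.69 in shCTR, 0.55, 0.76 and 1.17 in shPCBP2) and for miR-20b-5p (2.99, 3.01 and 3.22 in shCTR, 1.55, 1.75 and 2.07 in shPCBP2). The EV change of miR-25-3p did so too (0.026, 0.13 and 0.21). In cells, TMM factors gave 0.14 for miR-106b-5p and 0.021 for miR-93-5p, and the median of ratios gave 0.064 for miR-106b-5p. The total mouse count gave a change of the ratio of 0.058 for miR-106b-3p and 0.012 for miR-93-5p. The shift of the median of all miRNAs follows from the scaling itself. With single libraries left out, the change of the ratio ranged from -8.75 to 9.47 for miR-106b-3p and from -0.38 to 0.063 for miR-93-5p. The EV change ranged from -9.63 to 8.59 for miR-106b-3p and from -0.68 to 0.60 for miR-106a-5p, and the cell change from -1.18 to 0.015 for miR-20b-5p. The cause was not tested.

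For the ratios within libraries, leaving out single libraries gave 1.90 to 2.06 for miR-25-3p over miR-93-5p and 1.07 to 1.51 over miR-106b-5p, with p = 0.0571, the smallest that an exact permutation test of 3 against 4 libraries allows. The values were 1.74 and 0.91 in shCTR alone and 2.21 and 1.78 in shPCBP2 alone. The replicate block left them at 1.98 and 1.34 with an exact permutation p of 0.125, the smallest for 4 pairs. Same-numbered libraries had correlations of -0.12 to 0.21 between conditions over 113 miRNAs, and the titles and descriptions number the shPCBP2 libraries differently, so whether the numbers pair the samples is not resolved. With the replicate block the edgeR fit called 4 members in each EV/cell comparison and 0 in the others. Depth limits miR-106a-5p, miR-18b-5p and miR-363-3p, whose EV counts were at or under 3 reads.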
